A study of Rattus norvegicus with 9 samples.

Results

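Notch signaling passes a message between touching cells. A Jagged or Delta ligand on one cell binds a Notch receptor on its neighbor, proteases of the ADAM family and then gamma-secretase cut the receptor, and the freed intracellular part enters the nucleus. There it joins the DNA-binding protein Rbpj and switches on repressors of the Hes and Hey families. In the liver the pathway is best known for the formation of bile ducts, and its receptors and ligands are also used by the endothelium and the vessel wall. The genes described here were the receptors Notch1, Notch2, Notch3 and Notch4, the ligands Jag1 and Jag2, the DNA-binding factors Rbpj and Rbpjl, and the target repressors Hes1 and Hes5. They were chosen by name, as probes whose RefSeq accession belongs to one of these symbols or their synonyms. They are 10 genes, set within the 13432 genes that had a named probe on the array. A probe was matched for 9 of the 10, with 2 probes for Rbpj and 1 for each other gene, and Jag2 was not analysed here.

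RNA from whole liver of 9 male Wistar rats was measured, 1 rat per one-colour array, in 3 groups of 3. The control rats were neither irradiated nor given the drug. The TBI rats received 6.5 Gy of total-body irradiation from a 60Co source at 2 Gy/min, and the HSC + TBI rats received the same exposure after 3 days of Hong Shan Capsule (HSC), a mixture of medicinal herbs, by the intragastric route. The livers of irradiated rats were taken 24 h after exposure. The dose of HSC is 30 mg/kg/day in the sample labels and 10 g/kg/day in the description of the series, and no array analysed here came from a rat given HSC alone, so what HSC does without irradiation cannot be told apart. The age of the rats is not given in the sources used here. The labels number the samples within a group without naming litters or batches, so every p-value measures the spread between these samples only.

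The values are log2 signals after quantile normalization over the 9 arrays. A probe entered the test if, in some group, the scanner software marked it well above background on each of the 3 arrays, which held for 25369 of 41012 probes. A gene was called changed at a Benjamini-Hochberg adjusted p under 0.05, over all tested probes, together with a fold change of at least 1.5 by limma. More probes were marked above background in TBI rats (63.6% to 69.5% per array) than in control rats (56.6% to 59.3%) or HSC + TBI rats (58.7% to 60.5%). No slide held more than 1 group, so slide and group cannot be told apart. All 8 hepatocyte markers were above background on every array. The brightest probe of albumin (Alb) lay at 17.83 ± 0.04, 17.67 ± 0.16 and 17.91 ± 0.02 (log2, SD, n = 3) in control, TBI and HSC + TBI rats. Its further probes had means of 17.35, 17.52 and 17.49, and of 17.57, 17.51 and 17.64, in the same order. The samples hold many cell types, so fewer cells of a type and less RNA per cell cannot be told apart.

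The promoters of the target repressors are shown because Hes1 and Hes5 are the textbook outputs of the pathway. Windows of 250 bases were searched, each lying just before a start given in the RefSeq promoter table (assembly GRCr8) and read 5′ to 3′ on the strand of the gene. A RefSeq gene record can begin further out than that start, and for Hes5 it begins 66 bases earlier, so only the 184 bases before the gene record are printed. For Hes1 the whole window lies before the gene record. Capitals mark the core motif bound by Rbpj, TGGGAA, which reads TTCCCA where it lies on the other strand. The Hes1 stretch is chr11:84213046-84213295 on the minus strand, and the Hes5 stretch is chr5:170804327-170804510 on the plus strand.
Hes1: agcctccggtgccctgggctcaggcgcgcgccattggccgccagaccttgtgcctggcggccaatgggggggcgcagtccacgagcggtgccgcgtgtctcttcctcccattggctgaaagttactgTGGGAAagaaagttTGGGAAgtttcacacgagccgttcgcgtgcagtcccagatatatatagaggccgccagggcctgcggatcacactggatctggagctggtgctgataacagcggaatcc
Hes5: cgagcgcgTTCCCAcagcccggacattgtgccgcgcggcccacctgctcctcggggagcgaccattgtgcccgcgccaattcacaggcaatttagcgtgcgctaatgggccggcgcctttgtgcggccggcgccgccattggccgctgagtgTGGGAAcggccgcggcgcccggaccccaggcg

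Distances are counted from the start given in the promoter table. The Hes1 window held 2 cores on the strand of the gene, from 123 to 118 and from 109 to 104 bases before the start. The Hes5 window held 1 core on the other strand, from 242 to 237 bases before the start, and 1 on the strand of the gene from 98 to 93. Of all 33469 windows of the same length, 22.1% held the core on either strand. The Rbpjl window held 1 core, from 52 to 47 bases before the start, but the gene record of Rbpjl begins 109 bases before that start, so this core lies inside the annotated gene. No core was matched in the windows of Notch1, Notch2, Notch3, Jag1 and Jag2, and the Notch4 window held 2. The 2 overlapping windows of Rbpj held 1 and 2 cores, and both lie wholly inside its annotated gene. The N-box CACNAG, a motif that Hes proteins bind, was matched 4 times in the Hes1 window, 2 times in the Rbpjl window and 0 times in the Hes5 window, and 37.2% of all windows held it. These matches describe the letters in these windows and say nothing of binding in the liver.

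Across the 9 measured genes, the question was whether irradiation moved the core of the pathway and whether HSC given beforehand altered that. Between TBI and control rats, 1 of the 9 genes was called, Rbpjl, which was higher after TBI, while 7.25% of all tested probes were called. Between HSC + TBI and control rats 0 of the 9 were called, against 3.23% of all tested probes. Between HSC + TBI and TBI rats 0 of the 9 were called, against 0.796%. At an unadjusted p under 0.05, limma counted 4, 3 and 1 of the 9 genes in the same order, where 25.5%, 19.6% and 16.3% of all tested probes passed. With so few genes these counts are not set apart from the whole array, and a miss does not show that a gene was unaffected.

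The mean was highest in TBI rats for 5 genes (Notch2, Jag1, Rbpj, Rbpjl and Hes5), highest in HSC + TBI rats for 3 (Notch3, Notch4 and Hes1) and highest in control rats for Notch1 alone. The median log2 difference over the 9 genes was 0.32 for TBI against control, where that over all tested probes was -0.01. It was 0.17 for HSC + TBI against control, beside 0.05 over all tested probes. It was -0.23 for HSC + TBI against TBI, beside 0.06 over all tested probes. Rbpjl and Hes5 were above background in TBI rats only, so both entered the test through the group in which they were highest, and these medians give no support to a shift of the pathway. The other 7 genes were above background on all 9 arrays. The 3 comparisons share rats, so they are given side by side and not set against each other.

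**Figure D1:**
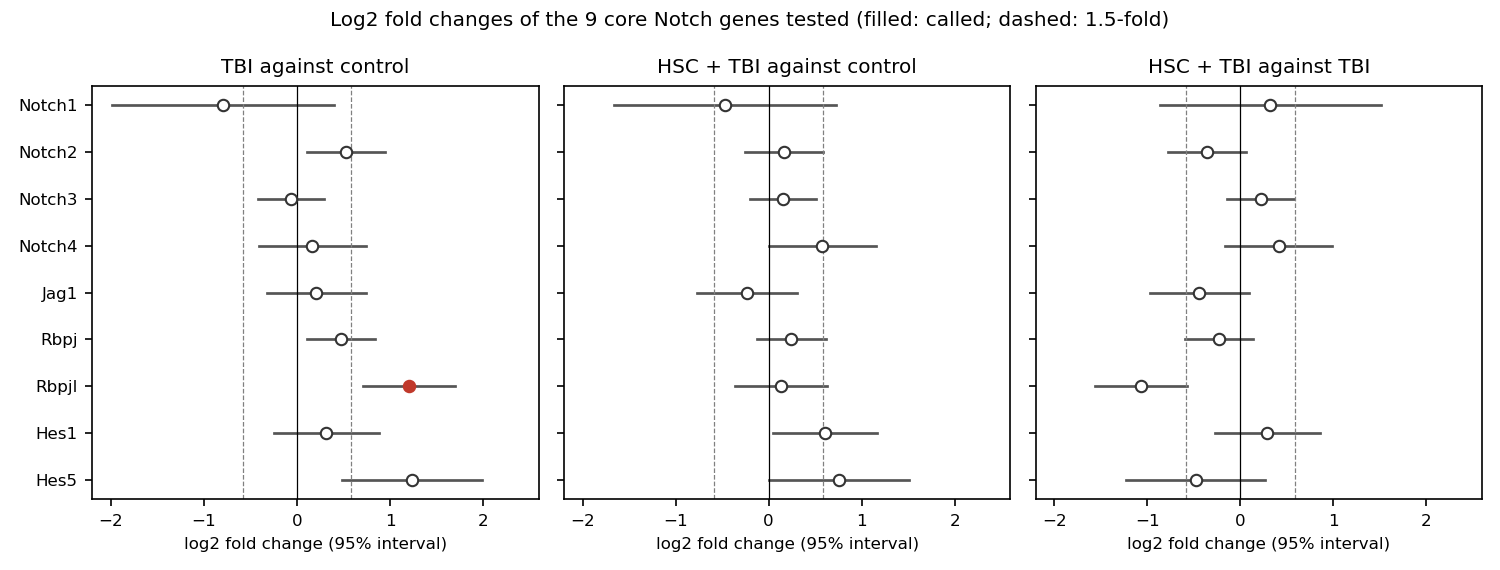
Log2 fold changes of the 9 core Notch genes with a probe (points) and their 95% confidence intervals from limma (lines) in the 3 comparisons, 3 rats per group; filled points were called and dashed lines mark a 1.5-fold difference. Rbpjl, at 1.20 in TBI against control, is the only filled point, and the interval of Notch1 is the widest in each panel.

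**Figure D2:**
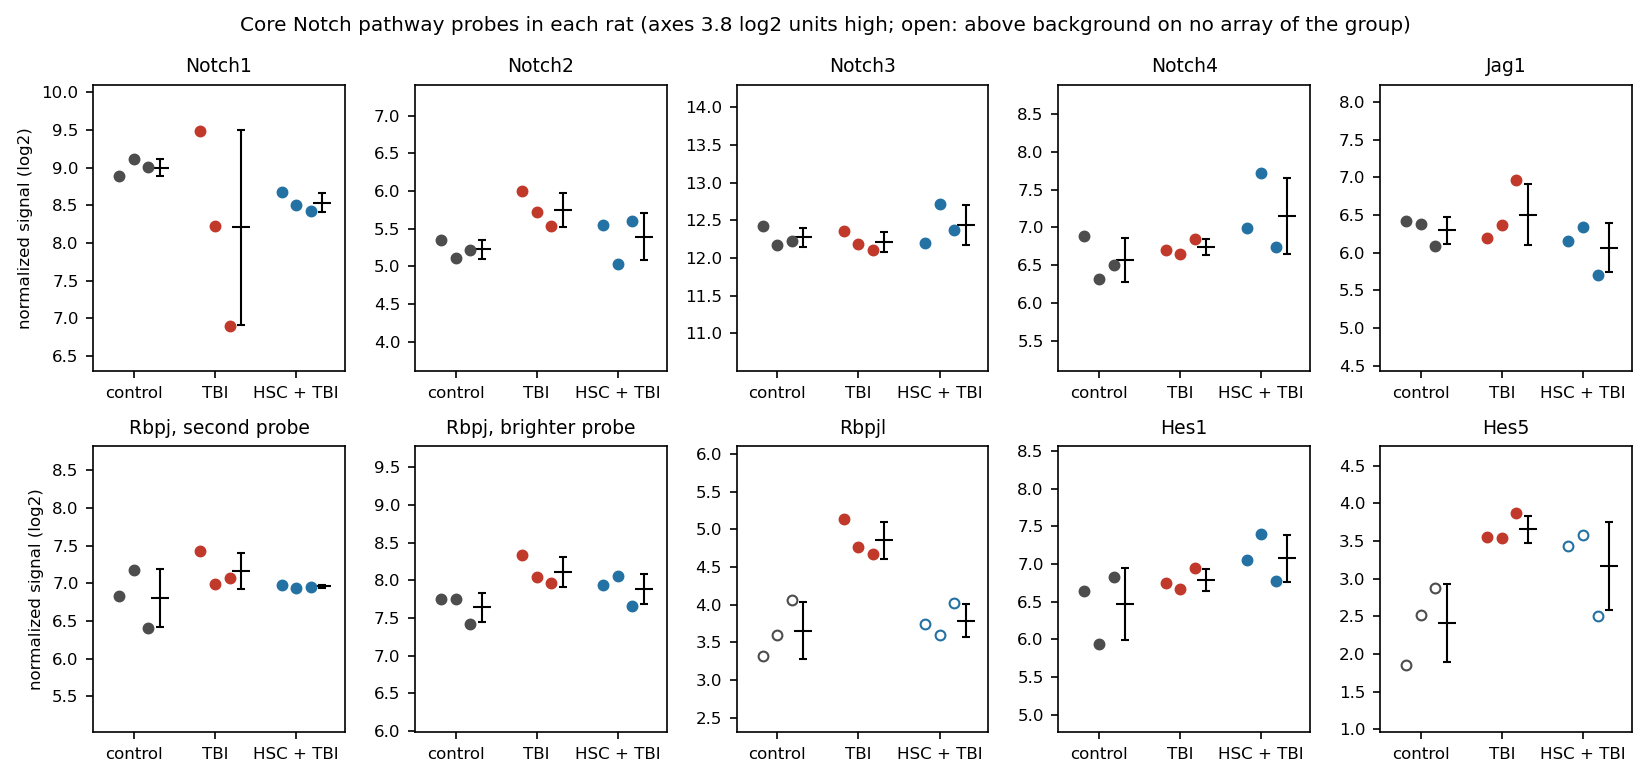
Normalized log2 signal of each probe in each rat (points, replicates 1 to 3 from left to right), with the mean and SD of each group (black, n = 3); open points mark groups in which the probe was above background on no array. The TBI rats spread widely for Notch1, from 6.90 to 9.49, and sit above all control and HSC + TBI rats for Rbpjl.

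Of the receptors, none was called in any comparison. Notch1, the receptor with broad roles in blood and endothelial cells, measured 8.88, 9.11 and 9.01 (log2) in control rats, 9.49, 8.23 and 6.90 in TBI rats, and 8.67, 8.50 and 8.42 in HSC + TBI rats. TBI 1 lay above every control rat and TBI 3 far below, so the TBI rats enclosed the control rats, whereas all HSC + TBI rats lay below all control rats, as 31.7% of tested probes were free of overlap, in either direction, between these groups. The TBI rats spanned a 6.01-fold range, with an SD of 1.29 on the log2 scale against 0.11 in control and 0.13 in HSC + TBI rats. Only 1.12% of tested probes had an SD at least as large among the TBI rats, where the median SD was 0.24. The mean difference from control was -0.79 (95% interval -1.98 to 0.40, adjusted p = 0.378) after TBI and -0.47 (-1.66 to 0.72, adjusted p = 0.675) after HSC + TBI. The TBI value rested on single rats. Without TBI 1 the difference was -1.43 with an adjusted p of 0.0451, and without TBI 3 it was -0.14 with an adjusted p of 0.822.

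Notch2, the receptor tied most closely to bile duct formation, measured 5.35, 5.10 and 5.22 in control rats, 5.99, 5.72 and 5.54 in TBI rats, and 5.55, 5.03 and 5.60 in HSC + TBI rats. Every TBI rat lay above every control rat, as was true, in either direction, of 28.9% of the tested probes, and the HSC + TBI rats overlapped both groups. The difference between TBI and control was 0.53 (95% interval 0.10 to 0.95), a 1.44-fold higher mean with an adjusted p of 0.121, which met neither threshold of the call. HSC + TBI differed from control by 0.17 (adjusted p = 0.668) and from TBI by -0.36 (adjusted p = 0.386).

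Notch3, a receptor of vascular smooth muscle and pericytes, measured 12.42, 12.18 and 12.23 in control rats, 12.36, 12.18 and 12.10 in TBI rats, and 12.20, 12.72 and 12.38 in HSC + TBI rats. The 3 groups overlapped. Its differences were the smallest of the receptors after TBI, -0.06 (95% interval -0.42 to 0.29), and the interval holds no change of 1.5-fold in either direction. Against control, HSC + TBI differed by 0.16 (-0.20 to 0.51), and against TBI by 0.22 (-0.14 to 0.58). The sign of the TBI difference turned with the scaling, to 0.0046 with a 75th percentile shift and 0.11 with normexp background correction.

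Notch4, the receptor found mainly in endothelial cells, measured 6.89, 6.32 and 6.50 in control rats, 6.70, 6.65 and 6.85 in TBI rats, and 6.99, 7.72 and 6.74 in HSC + TBI rats. HSC + TBI 2 was the highest of the 9 rats, and the other HSC + TBI rats lay within or just above the range of the remaining groups. HSC + TBI exceeded control by 0.58 (95% interval 0.01 to 1.15, 1.49-fold, adjusted p = 0.251), and TBI exceeded control by 0.17 (adjusted p = 0.717). HSC + TBI lay 0.41 above TBI (-0.16 to 0.99, adjusted p = 0.460).

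Jag1, the ligand whose loss causes a shortage of bile ducts in people, measured 6.41, 6.38 and 6.09 in control rats, 6.19, 6.36 and 6.96 in TBI rats, and 6.16, 6.34 and 5.70 in HSC + TBI rats. The groups overlapped throughout, with TBI 3 the highest and HSC + TBI 3 the lowest rat. TBI differed from control by 0.21 (95% interval -0.33 to 0.74, adjusted p = 0.616), and this became -0.02 without TBI 3. HSC + TBI differed from control by -0.23 (adjusted p = 0.639) and from TBI by -0.44 (-0.97 to 0.10, adjusted p = 0.401).

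Rbpj, the factor through which all Notch receptors act on DNA, was read by 2 probes. The brighter probe measured 7.75, 7.75 and 7.42 in control rats, 8.34, 8.05 and 7.96 in TBI rats, and 7.94, 8.05 and 7.66 in HSC + TBI rats. On this probe every TBI rat lay above every control rat, where 28.9% of tested probes were free of overlap in either direction. The HSC + TBI rats overlapped both groups. TBI exceeded control by 0.47 (95% interval 0.10 to 0.84, 1.39-fold, adjusted p = 0.114), HSC + TBI exceeded control by 0.24 (adjusted p = 0.456), and HSC + TBI lay 0.23 below TBI on average (-0.23, adjusted p = 0.528). The other probe gave the same signs at 0.36, 0.15 and -0.20 (adjusted p = 0.301, 0.727 and 0.649), but there TBI 2 and TBI 3, at 6.99 and 7.07, lay within the range of the control rats, 6.41 to 7.18.

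Rbpjl, a relative of Rbpj that takes no part in Notch signaling and serves in the pancreas as a subunit of the PTF1 complex driving digestive enzyme genes, was the gene that passed the test. It measured 3.31, 3.59 and 4.06 in control rats, 5.13, 4.77 and 4.67 in TBI rats, and 3.74, 3.59 and 4.02 in HSC + TBI rats. All TBI rats lay above all other rats, by at least 0.61 over control rats and 0.65 over HSC + TBI rats, and control and HSC + TBI rats overlapped. The probe was above background on 3 of 3 TBI arrays and on 0 of 3 arrays of each other group, so its level there is only a bound. With that bound, Rbpjl was 1.94-fold higher in TBI than in control rats. The limma difference was 1.20 (95% interval 0.71 to 1.69, adjusted p = 0.0145), and 3.54% of tested probes were called higher. Between TBI and control rats, 28.9% of tested probes were free of overlap in either direction. Rbpjl was 2.10-fold higher in TBI than in HSC + TBI rats as measured, and that comparison did not pass the test (-1.07, -1.56 to -0.58, adjusted p = 0.0724). Of the tested probes, 21.4% were free of overlap between these groups and 0.564% were called lower. For the bound, each array of the dim group was given the faintest signal marked above background there, or the signal of the probe where that was higher. The signal of the probe was higher on every HSC + TBI array without being marked above background. That faintest signal is therefore no strict detection limit, and the 95% intervals include smaller folds.

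The call for Rbpjl stood whichever rat was left out, with adjusted p from 0.0154 to 0.0491. The tested probes were not chosen anew in these fits. Rbpjl was among them only through the TBI rats, in which it was highest, so this gives the call no further support. The call did not stand with the methods' t-test after adjustment (adjusted p = 0.252). Nor did it stand with normexp background correction, at 0.25 (adjusted p = 0.0402, under 1.5-fold). That correction adds an offset of 50 to every spot, more than the processed signal of this probe on any array. It therefore shrinks the differences of dim probes, and missing the 1.5-fold minimum there says little. Before normalization, the processed signals of the probe were 7.67, 12.9 and 16.2 in control rats, 32.1, 30.5 and 45.3 in TBI rats, and 11.4, 11.7 and 12.0 in HSC + TBI rats. The faintest log2 signal marked above background was itself lower in TBI rats, 2.51 to 3.13, than in control rats, 3.68 to 3.97, and HSC + TBI rats, 3.56 to 3.66. Its part in the result was not tested.

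Markers of pancreatic acinar cells, the cells in which Rbpjl is best known, were read on the same arrays. Of the 9 markers 8 had a probe and 4 were tested. Their summed linear signal was 433 to 533 in control rats, 547 to 670 in TBI rats and 350 to 363 in HSC + TBI rats, and Ctrb1 alone made up 34.3% to 60.6%, 74.1% to 79.6% and 63.8% to 66.0% of it. Ctrb1, the precursor of the digestive enzyme chymotrypsin, measured 7.89 ± 0.34, 8.90 ± 0.12 and 7.86 ± 0.02 (SD, n = 3) in control, TBI and HSC + TBI rats. It was called higher in TBI than in control rats (2.01-fold, adjusted p = 0.0113) and lower in HSC + TBI than in TBI rats (2.05-fold, adjusted p = 0.0426). Cela2a, a pancreatic elastase, measured 4.01 ± 0.48, 4.82 ± 0.26 and 3.82 ± 0.28 and passed neither test (adjusted p = 0.0909 and 0.124). Its probe was above background on 2 of 3 control, 3 of 3 TBI and 1 of 3 HSC + TBI arrays. Cela2a thus entered the test only through the TBI rats, in which it was highest, so its values give the Rbpjl result no support.

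The other tested acinar markers did not have the pattern of Ctrb1. Cpb1, a carboxypeptidase, measured 6.60 ± 1.17, 4.78 ± 0.44 and 4.75 ± 0.25 in the same order of groups, a lower mean after TBI that did not pass the test (-1.82, adjusted p = 0.0650). Prss2, a trypsinogen, overlapped between all groups and also had a lower mean after TBI (-0.37, adjusted p = 0.374), with its lowest rat at 5.46 (TBI 3) and its highest at 6.72 (control 1). Prss1, Pnlip and Ptf1a, the last being the DNA-binding partner of Rbpjl in PTF1, were above background on 0 of 9 arrays, and Cpa1, the first marker of the list, on 1. The part of pancreatic RNA in the Rbpjl result was not tested.

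**Figure D3:**
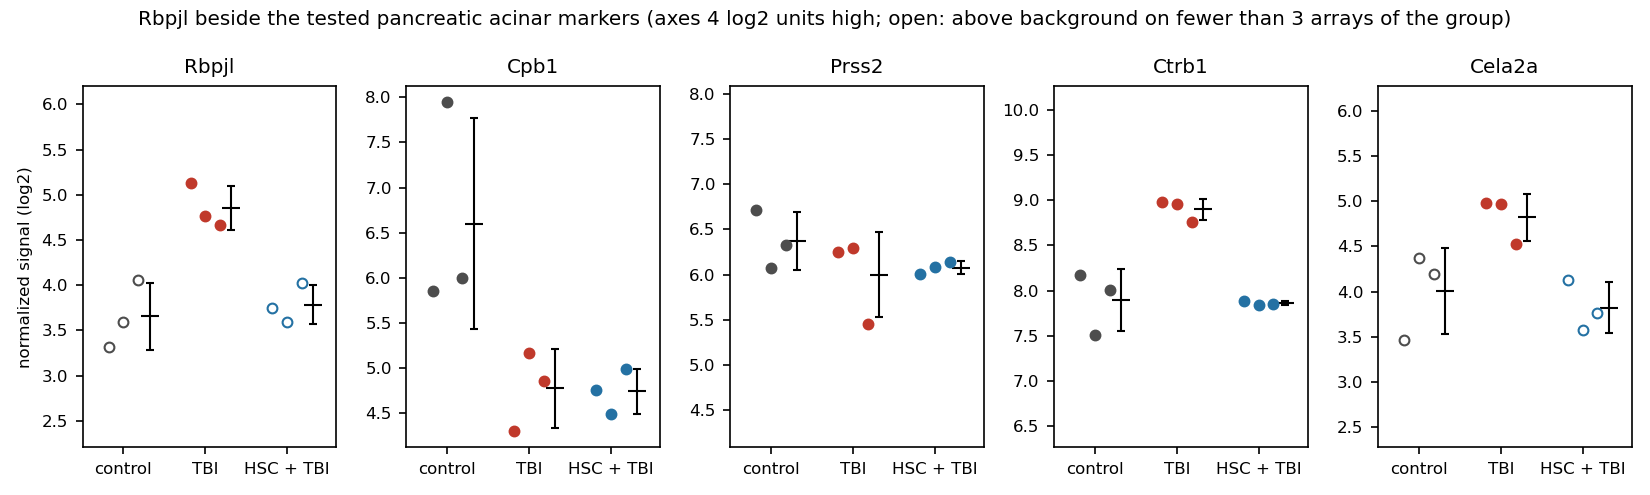
Normalized log2 signal in each rat for Rbpjl and the 4 pancreatic acinar markers that were tested, with the mean and SD of each group (black, n = 3); open points mark groups in which the probe was above background on fewer than 3 arrays. Rbpjl, Ctrb1 and Cela2a are highest in the TBI rats, Cpb1 is highest in the control rats, and Prss2 overlaps between all groups. Rbpjl and Cela2a entered the test only through the TBI rats.

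Of the target repressors, Hes1, the main Notch output in many tissues, measured 6.64, 5.93 and 6.83 in control rats, 6.74, 6.66 and 6.95 in TBI rats, and 7.05, 7.39 and 6.78 in HSC + TBI rats. Control 2 was the lowest and HSC + TBI 2 the highest rat, and the 3 groups overlapped. HSC + TBI exceeded control by 0.61 (95% interval 0.04 to 1.17, 1.52-fold), with an adjusted p of 0.224. TBI exceeded control by 0.32 (-0.25 to 0.88, adjusted p = 0.460), and HSC + TBI exceeded TBI by 0.29 (-0.27 to 0.85, adjusted p = 0.599).

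Hes5, a repressor known mostly from neural progenitors, measured 1.85, 2.52 and 2.87 in control rats, 3.55, 3.54 and 3.87 in TBI rats, and 3.43, 3.59 and 2.50 in HSC + TBI rats. All TBI rats lay above all control rats, by at least 0.67, where 28.9% of tested probes were free of overlap in either direction. Hes5 entered the test only through the TBI rats, in which it was highest, so this separation gives no support. Of the HSC + TBI rats only HSC + TBI 2 reached the range of the TBI rats. The probe was above background on 3 of 3 TBI arrays and on 0 of 3 arrays of each other group. The difference between TBI and control was 1.23 (95% interval 0.48 to 1.99) with an adjusted p of 0.0567, just outside the call. On average the TBI rats lay below the faintest signals marked above background on the control arrays, so no fold is given against control. By the same calculation the TBI mean was 1.01-fold that of HSC + TBI rats, and the measured difference of -0.48 had an adjusted p of 0.513.

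The call for Hes5 turned on the setting. Its adjusted p for TBI against control was 0.0448 with a 75th percentile shift in place of quantiles and 0.0325 without HSC + TBI 3, and with normexp background correction the difference was 0.03 (adjusted p = 0.741). Over leaving out each rat, the adjusted p ran from 0.0325 to 0.139. The processed signals before normalization were 3.33, 6.14 and 6.83 in control rats, 11.5, 13.6 and 26.2 in TBI rats, and 9.25, 11.6 and 4.01 in HSC + TBI rats.

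**Figure D4:**
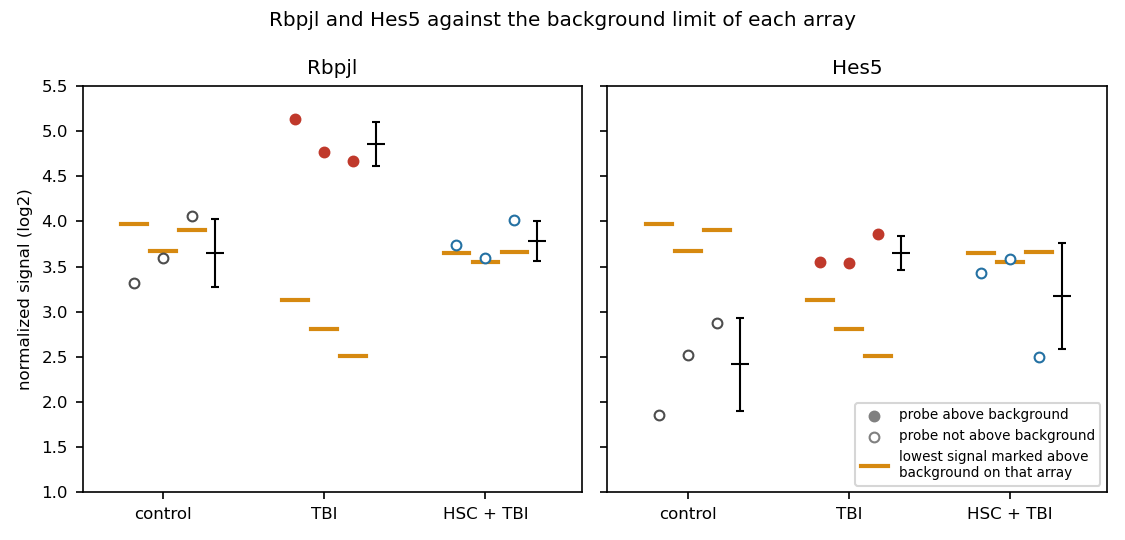
Normalized log2 signal of Rbpjl and Hes5 in each rat (points, filled where the probe was above background on that group's arrays), the mean and SD of each group (black, n = 3), and the faintest signal marked above background on the same array (orange bars). The bars sit lower on the TBI arrays, 2.51 to 3.13, than on the others, and the mean of the TBI points of Hes5 lies below all control bars while the TBI points of Rbpjl lie above them.

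Around this core, 61 further genes of the pathway were followed by role, of which 42 had a probe and 38 were tested. Between TBI and control rats 0 rose and 2 fell, Aph1b and Dtx3l, where 3.54% of all tested probes were called higher and 3.71% lower. Between HSC + TBI and control rats 0 rose and 1 fell, Dtx3l, where 1.19% were called higher and 2.05% lower. Between HSC + TBI and TBI rats 0 of 38 were called by limma, against 0.796% of all tested probes. At an unadjusted p under 0.05 there were 6, 6 and 4 of 38, where 25.5%, 19.6% and 16.3% of all tested probes passed. The median log2 difference over the 38 genes was -0.06, -0.02 and 0.04, beside -0.01, 0.05 and 0.06 over all tested probes.

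Aph1b is a subunit of gamma-secretase, the protease that releases the intracellular part of the receptor. It measured 9.60, 9.33 and 9.69 in control rats, 8.60, 8.79 and 8.73 in TBI rats, and 8.79, 8.77 and 9.42 in HSC + TBI rats. All TBI rats lay below all control rats, where 28.9% of tested probes were free of overlap in either direction. Of the HSC + TBI rats, HSC + TBI 3 alone reached the control range. Aph1b fell by 0.83 after TBI (-0.83, 95% interval -1.27 to -0.40, 1.78-fold lower, adjusted p = 0.0347). HSC + TBI differed from control by -0.55 (adjusted p = 0.166) and from TBI by 0.29 (adjusted p = 0.502). The call was lost on leaving out any control or any TBI rat, with adjusted p from 0.0532 to 0.116, and without a filter on dim probes (adjusted p = 0.0526).

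Of the 6 proteases and protease subunits tested, 5 had a lower mean in TBI than in control rats and 4 had an unadjusted p under 0.05, and 1 was called. Of all tested probes 49.3% had a higher mean after TBI, 25.5% had an unadjusted p under 0.05 and 3.71% were called lower. Beside Aph1b these were Aph1a, the alternative subunit, at -0.45 (adjusted p = 0.105), Ncstn, which binds the substrate, at -0.32 (adjusted p = 0.163), and Furin, which cuts the receptor on its way to the surface, at -0.31 (adjusted p = 0.166). These 3 are named because of their values. The weaker probe of Aph1a gave 0.03 (adjusted p = 0.945). Adam17, a protease that makes the outer cut, differed by 0.16 (adjusted p = 0.761).

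Dtx3l belongs to the Deltex family of ubiquitin ligases, some of which act on Notch receptors, and is itself known as an interferon-induced partner of Parp9 in DNA repair. Its brighter probe measured 6.71, 7.36 and 7.15 in control rats, 6.34, 6.35 and 5.83 in TBI rats, and 5.59, 5.80 and 6.13 in HSC + TBI rats. All irradiated rats lay below all control rats, with and without HSC. Of tested probes, 28.9% were free of overlap, in either direction, between TBI and control rats. Between HSC + TBI and control rats 31.7% were. Dtx3l fell by 0.90 after TBI (-0.90, 95% interval -1.42 to -0.38, adjusted p = 0.0468) and by 1.24 after HSC + TBI (-1.24, -1.75 to -0.72, 2.35-fold lower, adjusted p = 0.0260). HSC + TBI and TBI differed by -0.34 (adjusted p = 0.507). The second probe gave -0.76 (adjusted p = 0.0834) and -1.22 (adjusted p = 0.0298). For TBI against control the call held on leaving out control 1 and was lost on leaving out any other rat (highest adjusted p = 0.136), and with normexp background correction the difference was -0.46, under 1.5-fold. For HSC + TBI against control it was lost without control 2, control 3, HSC + TBI 1 or HSC + TBI 2 (highest adjusted p = 0.105) and without a filter on dim probes (adjusted p = 0.0542).

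In the remaining roles 0 genes were called by limma in any comparison. These were the other ligands (2 tested of 5), the glycosyltransferases that modify the receptor (5 of 5), the coactivators (4 of 8), the corepressors (9 of 11) and the other target genes (3 of 8). Of the regulators of receptor and ligand turnover, 9 of 15 were tested and Dtx3l was the gene called. The other target genes differed by -0.30 to 0.61 between TBI and control rats and by 0.00 to 0.43 between HSC + TBI and control rats. The corepressors differed by -0.22 to 0.40 and by -0.56 to 0.18. The coactivators differed by -0.36 to 0.36 and by -0.22 to 0.60. The glycosyltransferases other than Lfng, which was above background on 0 of 3 control and 0 of 3 HSC + TBI arrays and has only a bound there, differed by -0.25 to 0.07 and by -0.74 to 0.14, and the 2 ligands by -0.27 to 0.38 and by -0.01 to 0.63.

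**Figure D5:**
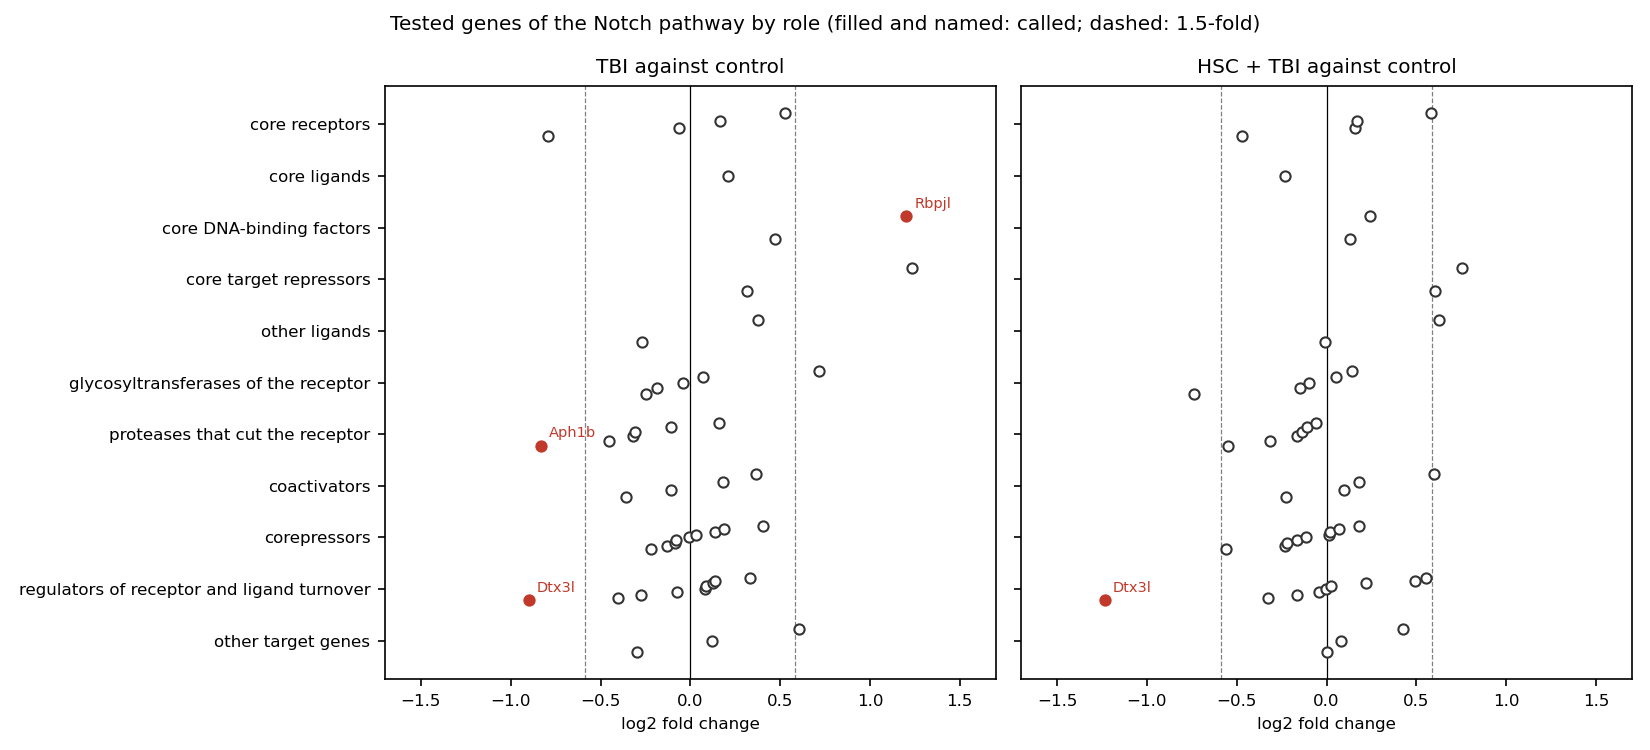
Log2 fold changes of the 9 core genes and the 38 other tested genes of the pathway, 1 point per gene, by role, for TBI against control (left) and HSC + TBI against control (right); filled and named points were called and dashed lines mark a 1.5-fold difference. Rbpjl lies to the right and Aph1b and Dtx3l to the left after TBI, Dtx3l alone is filled after HSC + TBI, and every other gene is unfilled.

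Markers of cell types that use the pathway were read on the same arrays. The summed linear signal of 6 endothelial markers was 12654 to 15581 in control rats, 16682 to 20533 in TBI rats and 15465 to 17157 in HSC + TBI rats, so TBI and control rats did not overlap. Kdr, a receptor for vascular growth factor, made up 79.0% to 86.7% of it on every array. Kdr itself differed by 0.33 between TBI and control rats (adjusted p = 0.206). These groups overlapped for Kdr, with TBI 3 at 13.69 and control 1 at 13.72. By the brightest probe of each gene none of the 6 was called, with Pecam1 at 5.13 ± 0.39, 5.25 ± 0.29 and 4.73 ± 0.28. The probes of Tie1, an endothelial receptor, disagreed after TBI, at 0.28 (adjusted p = 0.377) on the brighter probe and 1.20 (adjusted p = 0.0424), which was called, on the weaker one. Of the 6 genes, 4 had a higher mean after TBI. Lyve1, an endothelial marker, was 1.45-fold higher on its brighter probe (0.53, adjusted p = 0.0469), under the 1.5-fold minimum. Its weaker probe gave 0.43 (adjusted p = 0.179). Cdh5 and Tek had lower means after TBI that did not pass the test, at -0.27 and -0.23 (adjusted p = 0.414 and 0.475). The weaker probe of Tek gave -0.84 (adjusted p = 0.107).

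The summed signal of 8 T cell markers was 601 to 828 in control rats, 339 to 522 in TBI rats and 325 to 425 in HSC + TBI rats. Of the 6 tested, Cd3g and Cd2 were called lower after TBI, where 3.71% of all tested probes were, and Cd3g after HSC + TBI, where 2.05% were. Cd2 was called higher in HSC + TBI than in TBI rats (adjusted p = 0.0306), where 0.233% of all tested probes were. Cd2 was above background on 3 of 3 control, 0 of 3 TBI and 1 of 3 HSC + TBI arrays, so no fold is given. Cd3d, the first of the list, measured 8.66 ± 0.28, 7.88 ± 0.57 and 7.90 ± 0.35. The markers did not move together. After TBI, 4 of the 6 tested had a lower mean and 2 a higher one. Those 2 were Cd4 and Lck, at 0.71 and 0.55 (adjusted p = 0.260 and 0.240). In HSC + TBI against TBI rats, 4 of the 6 had a lower mean and 2 a higher one. The summed signal of 3 B cell markers was 33.6 to 77.1, 9.41 to 11.3 and 9.12 to 10.2. Cd79b, a part of the B cell receptor, was called lower after TBI (adjusted p = 0.00317) and after HSC + TBI (adjusted p = 0.0026), and was above background on 3 of 3 control arrays and on 0 of 3 arrays of each irradiated group. Notch1 is used by blood and endothelial cells and Notch4 by endothelial cells, and the part of cell numbers in their values was not tested.

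For 6 bile duct markers the sums were 732 to 834, 626 to 1053 and 735 to 822. By the brightest probe of each gene none was called, with Krt19 at 6.96 ± 0.38, 7.43 ± 0.28 and 7.27 ± 0.43. The probes of Cldn4, a tight junction protein, disagreed after TBI, at 0.21 (adjusted p = 0.610) on the brighter probe and 0.98 (adjusted p = 0.0229), which was called, on the weaker one. For 7 stellate and mural cell markers the sums were 4266 to 5415, 3803 to 4894 and 4481 to 5114, which overlap as the values of Notch3 did. Lrat, a marker of stellate cells, was called lower after TBI (-0.63, adjusted p = 0.0237). Its weaker probe was also called lower (-0.77, adjusted p = 0.0191). Of the 7 tested, 4 had a lower mean after TBI and 3 a higher one. Reln had a higher mean on both probes, at 0.40 on the brighter and 0.66 on the weaker (adjusted p = 0.363 and 0.182). Rgs5 was higher by 0.31 (adjusted p = 0.441). Pdgfrb measured 8.33 ± 0.08, 8.14 ± 0.36 and 7.78 ± 0.25. Krt7, the first bile duct marker of the list, and Sox9 were not analysed here.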

How the data were processed

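Per the file headers, the authors scanned each one-colour array with Agilent Feature Extraction 10.7.3.1, and the deposited files give spot intensity, background intensity, processed signal and quality flags. The authors also deposited log2 values normalized by quantiles in GeneSpring, which served here as an alternative (median absolute difference 0.03 on every array). Control spots and spots flagged as outliers (84 to 115 of 43379 per array) were left out, and the log2 of the processed signal (with a floor of 1) was quantile-normalized across the 9 arrays, then averaged per probe (limma 3.58.1, R 4.3.3). Group means were fitted in 1 limma model (lmFit, eBayes) over the 25369 tested probes. For a gene with several probes, the tested probe with the highest mean over the 9 arrays was used, and further probes of a named gene are given beside it. Genes were named by RefSeq accession. With 3 rats per group the number of arrays sets the precision, and the smallest p of an exact two-sided permutation test would be 0.1. The fit was tested on simulated data.

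The genes and lists were chosen with earlier results of these data known. Of the other pathway genes, those called in any comparison are named, others only where the text says so. Of the marker lists, the first gene and called genes are named, and all tested acinar markers beside Rbpjl. Kdr, Lyve1, Cdh5, Tek, Cd4, Lck, Reln and Rgs5 are named because of their values. As alternatives, the data were also run with a 75th percentile shift, normexp background correction (offset 50), the authors' values, 2 other filters on dim probes, outlier spots kept, only the compared groups, the methods' t-test, no minimum fold change, replicate number or slide as a block, the lowest probe, and each rat left out. Same-numbered rats of different groups are different animals, and the correlation of their deviations ran from -0.14 to 0.19, so the numbers were not taken as pairs.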

Additional observations from a re-analysis of the deposited data

How the results depend on the processing

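Of the 9 core genes, 1 was called for TBI against control. The count was 2 with a 75th percentile shift (Rbpjl and Hes5) and with the methods' t-test on unadjusted p, 3 with the slide as a random block (Notch1, Rbpjl and Hes5; consensus correlation -0.33), and 0 with normexp background correction, with the test limited to probes above background on all 9 arrays, which leaves out Rbpjl and Hes5, and with the methods' t-test on adjusted p. Leaving out each rat gave 1 to 2, with 2 without TBI 1 (Notch1) and without HSC + TBI 3 (Hes5). For HSC + TBI against control the count was 0 under every alternative run. For HSC + TBI against TBI it was 0, but 1 with the methods' t-test on unadjusted p and with the slide block, where Rbpjl was called. No slide held more than 1 group, so the slide block could not separate slide from group. The higher counts under it, here and below, are therefore no support for the calls.

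Of the other pathway genes, 2 were called for TBI against control. The count was 3 with the slide block (Aph1b, Dtx3l and Heyl), 1 with the 75th percentile shift, with normexp, with only the 2 groups compared in the fit, with the lowest probe of a gene and with the replicate block, 0 without a filter on dim probes and with the methods' t-test on adjusted p, and 0 to 1 on leaving out each rat. For HSC + TBI against control the count was 1. It was 2 with the 75th percentile shift, with only the 2 groups compared, with the methods' t-test on unadjusted p and with the slide block, 0 with no filter and with the methods' t-test on adjusted p, and 0 to 2 on leaving out each rat. For HSC + TBI against TBI it was 0, but 1 with the slide block, and 0 to 1 on leaving out each rat, with 1 without TBI 1. The replicate number as a block left the core gene counts at 1, 0 and 0. Why the counts differed between settings was not tested.

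The sign turned for differences near 0. Notch3 for TBI against control became 0.0046 with the 75th percentile shift and 0.11 with normexp, and ran from -0.13 to 0.0088 on leaving out each rat. On leaving out each rat, Jag1 for TBI against control ran from -0.018 to 0.36, Rbpjl for HSC + TBI against control from -0.039 to 0.33, and Notch1 for HSC + TBI against TBI from -0.33 to 0.97. Hes5 for HSC + TBI against TBI became 0.027 with normexp.

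Over all tested probes, 1839, 820 and 202 were called in the 3 comparisons (TBI against control, HSC + TBI against control, HSC + TBI against TBI). The counts were 665, 490 and 6 with normexp, 4528, 2573 and 2256 with the slide block, 7, 2 and 0 with the methods' t-test on adjusted p, and 888 to 2392, 317 to 1028 and 28 to 948 on leaving out each rat. Only 3 rats per group and signals near background limit what can be said of Rbpjl and Hes5.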
